A study of Rattus norvegicus with 16 samples.

Results

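The axon guidance ligands and receptors were taken here as the genes of the semaphorin (Sema), plexin (Plxn), ephrin (Efna, Efnb), Eph receptor (Epha, Ephb), Slit, Robo, netrin (Ntn) and Unc5 families, found by their symbols in the array annotation. A probe set (transcript cluster) was kept where the annotation gave it 1 gene symbol that began with a family name followed by the member's letter or digit. The rule found 56 clusters for 55 genes among 27342 clusters on the array and among 14324 genes that have a cluster of their own. Sema4c was the only gene with more than 1 cluster, and the cluster with the highest mean over 16 arrays stood for it. By family there were 6 secreted and 10 membrane-bound semaphorins, 5 plexins, 2 Slits, 4 Robo receptors, 5 netrins, 3 Unc5 receptors, 7 ephrins and 11 Eph receptors. The remaining 2 genes, Unc50 and Unc5cl, carry a symbol that matches but are not netrin receptors: Unc50 is a Golgi protein and Unc5cl a cytoplasmic relative. They were kept in the counts, and leaving them out changed no count of genes past a test.

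These families steer growing axons during development and remain in use in the adult brain. Class 3 semaphorins are secreted and repel axons through neuropilin co-receptors and plexins, whereas most other vertebrate semaphorins are held in the membrane and bind plexins directly. Slits repel axons through Robo receptors. Netrins attract through Dcc and repel where an Unc5 receptor is present. Ephrins are anchored to the cell surface and signal through Eph receptor tyrosine kinases on the touching cell, with the A and B classes largely pairing among themselves. In the hippocampus Sema3a, neuropilins and Eph receptors are known for their part in mossy fibre and perforant path wiring, in dendritic spines and in synaptic plasticity.

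The arrays came from hippocampus and cortex of male Sprague-Dawley rats, 15 months old when the experiment began. The rats ate control chow or chow with curcumin for 6 or 12 weeks. Curcumin is the yellow polyphenol of turmeric. The 8 groups were hippocampus control, 6 weeks; hippocampus curcumin, 6 weeks; hippocampus control, 12 weeks; hippocampus curcumin, 12 weeks; and the same 4 in cortex, with 2 arrays in each, or 16 arrays in all. Each array was loaded with RNA pooled from 3 rats, with 6 rats to a group. The labels give no transgene. The methods also describe behavioural tests and, late in the feeding, daily injections of BrdU, a label for dividing cells, in curcumin-fed rats and controls, without saying whether the rats of the arrays were among them. The labels name the 2 arrays of each group biological replicates, but the study's methods describe them as duplicates, so the p-values measure only the spread between such duplicates, which could be technical. In such tissue pools, fewer cells of a type and less RNA per cell cannot be told apart.

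All values below are log2 signal intensities, in which a difference of 1 is a doubling. A gene was called changed where the adjusted p of limma's moderated test, fitted over all clusters and all 16 arrays, was under 0.05. Each count of the main fit is read beside the share of all 27342 clusters called in the same comparison. Counts from a single duration, an alternative setting or a fit without 1 array have no such share here. A move in those counts need not be particular to these genes. Array medians lay between 6.35 and 6.44, and the arrays of a group correlated at r = 0.990 to 0.996 over all clusters. Prox1 and C1ql2, markers of dentate granule cells, lay at 7.31 to 8.07 and 7.86 to 8.77 in hippocampus. In cortex they lay at 5.71 to 6.81 and 5.93 to 6.53, without overlap. Of the 3 granule cell markers measured here, the other 1 had a higher mean in cortex on both diets and was not called. Only Fezf2 of the 6 cortical projection neuron markers had a cluster of its own here, and it did not set the cortex apart, at 7.11 to 8.28 against 8.06 to 8.54 in hippocampus.

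Several cortical pools differed in markers of neighbouring regions. The mean of 5 olfactory bulb markers was 7.28 and 8.41 on the 6-week cortical control arrays, replicates 1 and 2, and 6.61 to 7.06 on the other 6 cortical arrays. The mean of 5 striatal markers ranged from 6.61 to 8.94 over the 8 cortical arrays and reached 8.94 and 8.30 on 6-week control replicate 1 and 12-week control replicate 2. The 6-week cortical control arrays also had the highest means of 11 myelin genes among cortical arrays, 9.64 and 9.21 against 8.19 to 9.15. In hippocampus, the mean of 5 choroid plexus and ependyma markers was 6.77 and 8.60 on the 6-week control arrays and 5.64 and 8.09 on the 6-week curcumin arrays, against 5.74 to 6.12 at 12 weeks. The part these differences play in the results was not tested.

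**Figure D1:**
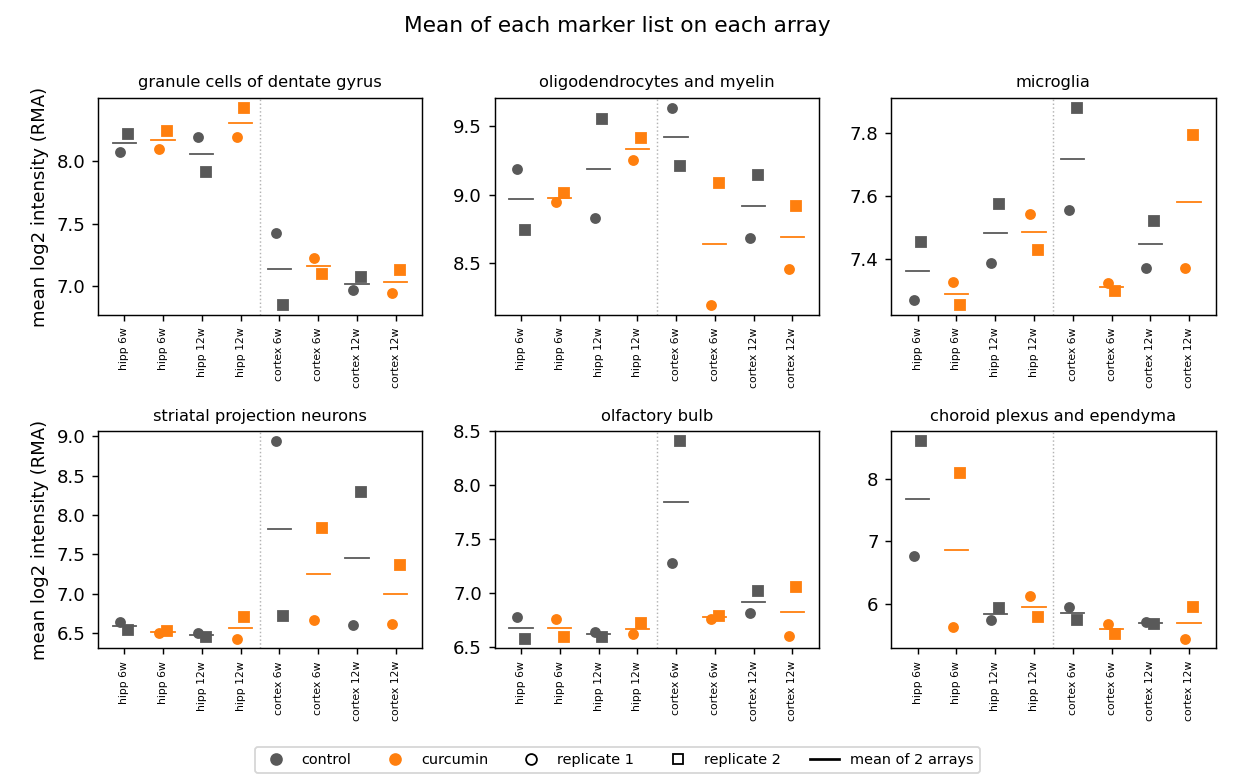
Mean log2 intensity of 6 marker lists (y axis) on each of the 16 arrays, by tissue, week and diet (x axis; circles replicate 1, squares replicate 2, lines the mean of 2 arrays). The mean of the granule cell list separates the tissues, though 1 of its 3 genes was higher in cortex. The olfactory bulb list is highest on the 6-week cortical control arrays, at 7.28 and 8.41.

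Most of the 55 genes were well represented. Their means over 16 arrays ran from 5.24 for Epha1 to 9.30 for Sema7a, 45 of them lay above the median cluster (6.40), and 1, Epha1, lay among the dimmest 25%. Levels of different genes are not set against each other here, because each has its own probes. In the GRCr8 annotation of RefSeq, 54 of the 55 were matched by gene ID and Robo4 was not. Sema3a, Sema3c, Sema3d and Sema3e lie near each other on chromosome 4 (18538452 to 23460971). Epha8 lies near Ephb2 on chromosome 5 (154449566 to 154476966 and 154179065 to 154360459). A further 15 protein-coding genes of these families in RefSeq, Slit2, Unc5d, Epha4, Plxna1 and Plxna4 among them, had no cluster under the rule and were not analysed here.

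The promoters of 4 receptors are shown because the results below turn on them. Epha7 and Epha8 differed between the tissues on both diets, and Plxna3 was called with curcumin. Ephb6 was called in cortex between durations on control arrays and for the change of the curcumin difference, but for curcumin at neither duration. Each line is the 250 bases before the transcription start that the RefSeq table (GRCr8) uses for the gene, written 5′ to 3′ in the direction of the gene; for Epha7 and Plxna3 that start lies inside the outer bounds of the gene. Capitals mark a CCAAT box (CCAAT) or a GC box (GGGCGG) on either strand. The windows are chr5:47771643-47771892 (plus strand), chr5:154476967-154477216 (minus), chr4:71458382-71458631 (plus) and chrX:157266857-157267106 (plus).
Epha7: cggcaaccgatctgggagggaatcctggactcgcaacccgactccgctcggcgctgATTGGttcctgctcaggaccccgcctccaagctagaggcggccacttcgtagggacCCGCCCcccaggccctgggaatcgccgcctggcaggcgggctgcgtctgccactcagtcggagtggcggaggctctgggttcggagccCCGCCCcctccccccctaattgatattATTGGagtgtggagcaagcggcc
Epha8: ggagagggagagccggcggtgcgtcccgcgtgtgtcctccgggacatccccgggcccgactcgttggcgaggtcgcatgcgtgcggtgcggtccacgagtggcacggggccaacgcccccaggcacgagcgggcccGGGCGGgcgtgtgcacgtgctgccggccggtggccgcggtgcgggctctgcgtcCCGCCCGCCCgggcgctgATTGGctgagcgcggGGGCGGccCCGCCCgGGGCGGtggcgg
Ephb6: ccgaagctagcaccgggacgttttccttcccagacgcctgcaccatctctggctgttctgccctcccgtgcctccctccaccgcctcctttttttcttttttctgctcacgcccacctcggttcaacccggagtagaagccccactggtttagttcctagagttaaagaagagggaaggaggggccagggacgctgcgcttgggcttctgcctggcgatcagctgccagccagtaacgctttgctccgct
Plxna3: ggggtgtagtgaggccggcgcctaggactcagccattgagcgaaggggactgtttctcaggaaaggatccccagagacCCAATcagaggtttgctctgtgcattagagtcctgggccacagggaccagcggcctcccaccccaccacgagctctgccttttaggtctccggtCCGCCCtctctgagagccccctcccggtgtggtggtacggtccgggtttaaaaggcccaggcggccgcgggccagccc
The Epha7 window held 2 CCAAT boxes and 2 GC boxes, with 67.6% G and C. The Epha8 window held 1 CCAAT box and 6 GC boxes, of which 2 overlap, with 80.0% G and C. The Plxna3 window held 1 of each, and the Ephb6 window neither. Among 33469 RefSeq promoter windows of the same length, 34.0% held a CCAAT box and 30.5% a GC box. TATAAA, found in 12.9% of them, was in none of the 4, and the E-box CANNTG, found in 65.5%, was in those of Epha8 and Ephb6, once in each. These are matches of letters only. The table holds no promoter for Slit1, Sema3a, Sema5a and Unc5c.

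The first comparison asks how the guidance genes differ between cortex and hippocampus. On the 8 control arrays 10 of the 55 genes differed: 2 were higher in cortex, where 1.13% of all clusters were called, and 8 were lower, where 3.08% were. Both that were higher are secreted semaphorins, Sema3a and Sema3c. The 8 that were lower were both Slits (Slit1 and Slit3), the netrin receptors Unc5a and Unc5c, the Eph receptors Epha7, Epha8 and Ephb2, and the membrane semaphorin Sema5a. The median difference over the 55 genes was -0.04, against 0.0005 over all clusters, and at an unadjusted p under 0.05 there were 7 higher and 16 lower genes, against 5.82% and 9.43% of clusters.

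Sema3a, the secreted repellent that acts through Nrp1 and A-type plexins, had the largest difference of the 55. Its lowest, median and highest values were 5.88, 6.25 and 7.17 over the 8 hippocampal arrays, and 7.62, 8.12 and 8.35 over the 8 cortical arrays. Every cortical array lay above every hippocampal array. The cortex was higher by 1.77 (SE 0.197, adjusted p = 0.00044), or 3.41-fold, on control arrays. On curcumin arrays it was higher by 1.68 (SE 0.197, adjusted p = 0.000621). Within a duration, the control difference was 1.71 at 6 weeks and 1.83 at 12 weeks, each past the threshold.

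Neuropilins, which bind class 3 semaphorins, were lower in cortex on control arrays. Nrp1 lay between 8.39 and 8.61 in hippocampus and between 6.91 and 7.54 in cortex, with no overlap, and was lower in cortex by a log2 difference of -1.24 (SE 0.0967, adjusted p = 5.61e-05) on control arrays. On the curcumin arrays the difference was -1.11 (adjusted p = 0.000131). Nrp2 was lower by a log2 difference of -1.18 (SE 0.195, adjusted p = 0.00542) on control arrays, and on curcumin arrays its difference was -0.70 (adjusted p = 0.0617), which did not pass. Sema3c, also secreted, was higher in cortex by 0.46 (SE 0.113, adjusted p = 0.0453) on control arrays. That call was lost when any of 6 of the 8 control arrays was left out, with adjusted p up to 0.148. The other 4 secreted semaphorins did not pass on control arrays.

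Slit1, a large secreted ligand of Robo receptors, had the smallest adjusted p. Its values were 8.57, 8.84 and 8.97 (lowest, median, highest) on hippocampal arrays and 7.65, 8.27 and 8.52 on cortical arrays, again without overlap. The difference was -0.93 (SE 0.0802, adjusted p = 8.38e-05) on control arrays and -0.40 (SE 0.0802, adjusted p = 0.0145) on curcumin arrays. Slit3, of the same family, had a difference of -0.63 (SE 0.105, adjusted p = 0.00603) on control arrays and of -0.19 (adjusted p = 0.428) on curcumin arrays. The Robo receptors themselves showed no call: Robo1, Robo2, Robo3 and Robo4 differed by -0.09 to 0.21 on control arrays.

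Unc5a and Unc5c, which turn the response to netrin into repulsion, were lower in cortex on control arrays by log2 differences of -0.82 (SE 0.0842, adjusted p = 0.000283) and -0.60 (SE 0.097, adjusted p = 0.00499). Unc5b, from the same family, differed by -0.07 and did not pass. On curcumin arrays the differences of Unc5a and Unc5c were -0.16 and -0.14, with adjusted p of 0.398 and 0.554. None of the 5 netrins passed on either diet. The lowest of them was Ntng1, a membrane-anchored netrin-G, at -0.82 on control arrays. On those arrays it ranged from 6.17 to 7.37 in cortex and from 7.30 to 7.61 in hippocampus.

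Among the Eph receptors, Epha7 had values of 8.75, 9.24 and 9.70 (lowest, median, highest) in hippocampus and 7.84, 8.46 and 8.84 in cortex. Its tissue difference was -0.67 (SE 0.099, adjusted p = 0.00292) on control arrays and -0.98 (SE 0.099, adjusted p = 0.000284) on curcumin arrays. Epha8 had values of 6.41, 7.02 and 7.17 in hippocampus and 6.03, 6.202 and 6.58 in cortex. Its differences were -0.60 (SE 0.0994, adjusted p = 0.00537) and -0.76 (SE 0.0994, adjusted p = 0.00135). For both, the control arrays of the tissues overlapped and the curcumin arrays did not. Ephb2, which lies near Epha8, differed by -0.33 (SE 0.0549, adjusted p = 0.00616) on control arrays and by -0.14 (adjusted p = 0.198) on curcumin arrays. The remaining 8 Eph receptors did not pass on either diet.

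Sema5a, a membrane semaphorin with thrombospondin repeats, had values of 8.43, 8.83 and 9.08 in hippocampus and 7.73, 7.86 and 8.24 in cortex. It was lower in every cortical array than in any hippocampal array. The difference was -0.79 (SE 0.0893, adjusted p = 0.000487) on control arrays and -0.99 (SE 0.0893, adjusted p = 0.000154) on curcumin arrays.

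On the 8 curcumin arrays 10 genes were called as well, 6 higher in cortex (2.58% of all clusters) and 4 lower (3.31%). The genes called on both diets, which share no array, were Sema3a, Slit1, Sema5a, Epha7 and Epha8. The Slit1 call on curcumin arrays was lost without any of 3 of the 8 arrays (adjusted p up to 0.0609), in a fit of these arrays alone (0.0687) and within each duration (0.0611 and 0.252 at 6 and 12 weeks). The other 5, chosen for mention after their values were seen, were higher in cortex: the ephrins Efna5 by 0.88 (SE 0.147, adjusted p = 0.00583) and Efnb2 by 0.47, the plexin Plxnd1 by 0.57, and the semaphorins Sema3f by 0.37 and Sema4f by 0.29. Efna5, a ligand for A-type Eph receptors such as Epha7, lay at 6.17 to 6.65 in hippocampus and 6.65 to 7.72 in cortex, where the highest hippocampal and the lowest cortical array met. On control arrays its difference was 0.54 and did not pass. On leaving out 1 array, the Sema4f call was lost for each of the 8 arrays, that of Plxnd1 for 4 (adjusted p up to 0.091), that of Sema3f for 3 and that of Efnb2 for 2.

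Among the members that passed on neither diet, Sema7a, a semaphorin anchored by a lipid and the brightest cluster of the 55, had values of 8.85, 9.40 and 9.58 in hippocampus and 8.87, 9.19 and 10.04 in cortex. Epha5, another receptor of A-type ephrins, had values of 8.85, 9.21 and 9.33 against 8.64, 8.91 and 9.26. Of the ephrins, Efna1 lay at 6.57 to 6.90 in hippocampus and 6.59 to 6.89 in cortex, and Efnb3 at 7.23 to 7.83 and 6.72 to 7.36. In each of these 4 genes the arrays of the tissues overlapped. Among the 10 membrane semaphorins on control arrays, only Sema5a passed, and the median difference was -0.04.

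**Figure D2:**
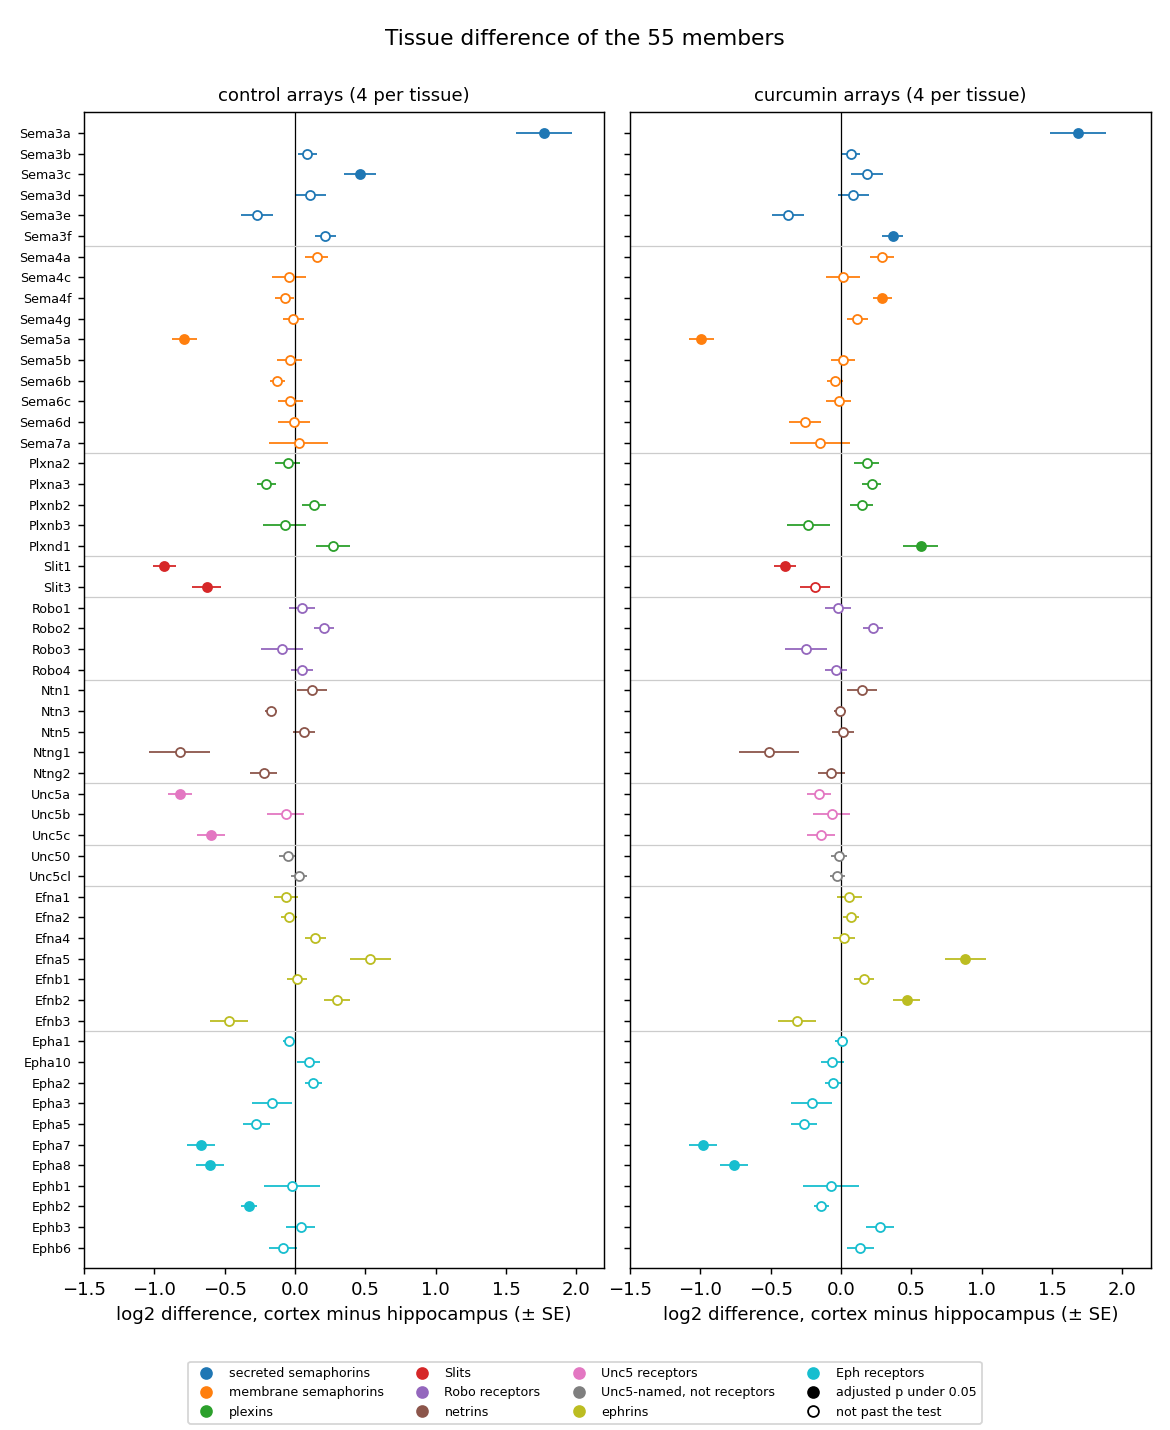
Log2 difference, cortex minus hippocampus, with its SE (x axis) for each of the 55 genes by family (y axis), on control arrays (left) and curcumin arrays (right). Filled points passed an adjusted p of 0.05; Sema3a lies farthest to the right on both diets, and Slit1, Sema5a, Epha7 and Epha8 are filled to the left on both.

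The olfactory bulb markers were raised on the 6-week cortical control arrays, so the tissue difference was also taken within each duration. The share of all clusters called within a duration is not given, so these counts cannot be set beside it. At 6 weeks 9 genes were called on control arrays. At 12 weeks, without those 2 arrays, 5 were called: Sema3a, Sema3c, Slit1, Unc5a and Unc5c. Of the 10 genes called on all control arrays, Epha7 moved most, from -1.18 (adjusted p = 0.00158) at 6 weeks to -0.16 (adjusted p = 0.811) at 12 weeks. Sema5a moved from -1.07 to -0.51 (adjusted p = 0.0848). On curcumin arrays the differences were -0.75 and -1.22 for Epha7, -0.82 and -1.17 for Sema5a, and -0.75 and -0.76 for Epha8 at 6 and 12 weeks, all past the threshold, with 4 genes called at 6 weeks and 8 at 12.

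The second comparison asks what curcumin did to these genes in each tissue and duration. Over the 4 comparisons 1 gene passed, Plxna3 in cortex at 12 weeks. In hippocampus at 6 weeks no gene passed, as for all clusters (0%), and at an unadjusted p under 0.05 there were also 0 of 55, against 2.03% of clusters. The differences ran from -0.18 to 0.20. No gene was past 1.5-fold, the size rule used by the study, which 0.121% of clusters passed. The 5 with the largest moderated statistic, none past the test, were Ntn3 (-0.12), Epha1 (-0.10), Sema6b (0.11), Robo2 (-0.15) and Epha8 (-0.18).

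In hippocampus at 12 weeks limma again called 0 of 55 genes, against 0.00366% of clusters, with 10 at an unadjusted p under 0.05 (against 5.11% of clusters). Past 1.5-fold were 3 genes, all higher with curcumin, against 0.230% of clusters. Epha7, which binds A-type ephrins, read 8.75 and 8.997 on the control arrays and 9.57 and 9.70 on the curcumin arrays, apart by 0.76 (SE 0.14, adjusted p = 0.292). Robo3, the Robo family member known from midline crossing, read 5.77 and 5.84 against 6.43 and 6.49, apart by 0.66 (SE 0.211, adjusted p = 0.852). Sema3a read 5.88 and 6.21 against 7.17 and 6.29, apart by 0.68 (SE 0.279, adjusted p = 0.94). Without curcumin replicate 1 the difference in Sema3a was 0.25.

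Beside them stood Sema5a, at 0.52 (adjusted p = 0.629), Epha8, at 0.57 (adjusted p = 0.655), and Unc5c, at -0.42 (adjusted p = 0.852). Epha8 read 6.41 and 6.70 on control arrays and 7.10 and 7.14 on curcumin arrays. None of these 6 genes passed. Their curcumin and control arrays did not overlap, as in 28 of the 55 genes and 27.4% of all clusters. Of the 11 Eph receptors 10 had a higher mean with curcumin, with a median of 0.11, whereas the 7 ephrins ran from -0.25 to 0.26 with a median of -0.04. Both Slits had a lower mean, Slit1 by a log2 difference of -0.29 and Slit3 by one of -0.15. At 6 weeks, on other arrays, Epha7 differed by 0.02, Sema5a by -0.05 and Epha8 by -0.18. The 6-week control arrays read 9.22 and 9.27 for Epha7, 8.80 and 8.96 for Sema5a and 7.17 and 7.07 for Epha8. In these genes they lay above the 12-week control arrays, which the comparison of durations below also uses. In Epha7 the 12-week curcumin arrays lay above the 6-week control arrays as well. The part of the 12-week control arrays in these differences was not tested. The change of the curcumin difference from 6 to 12 weeks in hippocampus was called for 0 of 55 genes and 0% of clusters by limma, with 5 genes at an unadjusted p under 0.05, against 3.43% of clusters.

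In cortex at 6 weeks 0 of 55 genes were called by limma, against 0.106% of clusters, with 15 at an unadjusted p under 0.05, against 12.0% of clusters. By the 1.5-fold rule 4 genes passed, 3 higher and 1 lower, against 1.25% of clusters. Ephb6, an Eph receptor whose kinase domain lacks activity, read 7.58 and 7.74 on control arrays and 8.21 and 8.75 on curcumin arrays, a difference of 0.82 (SE 0.137, adjusted p = 0.0547). Unc5a read 7.66 and 7.55 against 8.35 and 8.12, a difference of 0.63 (SE 0.119, adjusted p = 0.0733). Slit1 read 7.72 and 7.65 against 8.46 and 8.12, a difference of 0.60 (SE 0.113, adjusted p = 0.0733).

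Sema3e, a secreted semaphorin that binds Plxnd1 directly, was the lower one, at 8.39 and 8.51 against 7.61 and 8.05, a difference of -0.62 (adjusted p = 0.145). Ephb2 differed by 0.36 (adjusted p = 0.106). Under 5 of the alternative settings the count rose to 1 or 3 genes, with Ephb6 past the threshold in each and Slit1 and Unc5a in those with 3. It rose to 8 when cortical control replicate 1, with the high striatal markers, was left out, and to 1 without curcumin replicate 1. The control arrays of this comparison are those with the raised olfactory bulb and myelin means. Against them the curcumin arrays had lower values in all 5 olfactory bulb genes (median -1.10) and all 5 striatal genes (median -0.51). All 11 myelin genes (median -0.81) and all 10 microglia genes (median -0.375) were lower too. Fezf2, the cortical projection neuron marker, was higher by 0.80. None of these was called, and the part of these markers in the differences was not tested.

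In cortex at 12 weeks 1 of 55 genes was called, against 3.24% of clusters, and 12 had an unadjusted p under 0.05 (against 15.1% of clusters). The gene was Plxna3, an X-linked plexin that serves as a signalling receptor for class 3 semaphorins together with neuropilins. It read 7.06 and 7.13 on control arrays and 7.58 and 7.70 on curcumin arrays, which also lay above its values on all 14 other arrays (7.06 to 7.49). The difference was 0.55 (SE 0.0932, adjusted p = 0.0122), or 1.46-fold. The call was lost without control replicate 1 (adjusted p = 0.121), control replicate 2 (0.0532) or curcumin replicate 2 (0.0853), and in a fit of the 4 arrays alone (0.123). The value of Plxna3 at 6 weeks was 0.06 in cortex and -0.09 in hippocampus, and at 12 weeks in hippocampus -0.14.

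Past 1.5-fold in cortex at 12 weeks was 1 gene, against 0.827% of clusters: Efna5, which read 7.02 and 6.65 on control arrays and 7.72 and 7.14 on curcumin arrays, a difference of 0.60 (adjusted p = 0.171). Unc5a differed by 0.39 (adjusted p = 0.108), Plxnb2, a receptor of class 4 semaphorins, by 0.31 (adjusted p = 0.215) and Slit3 by 0.39 (adjusted p = 0.217). All 5 plexins had a higher mean with curcumin, by 0.26 to 0.55, with a median of 0.31 against 0.0006 over all clusters, but only Plxna3 passed. The 12-week control arrays used here are also those of the comparison of durations below. There Plxnb2 was lower at 12 weeks by a log2 difference of -0.57. Plxnd1, the receptor of Sema3e, read 6.61 and 6.74 on control arrays and 7.15 and 7.09 on curcumin arrays, a difference of 0.45 (adjusted p = 0.229). At 6 weeks in the same tissue the plexins ran from -0.51 for Plxnb3 to 0.43 for Plxnd1, with none called. All 3 Unc5 receptors and all 5 netrins also had a higher mean at 12 weeks, by 0.19 to 0.39 and 0.03 to 0.32, and none of them passed. In the same comparison all 5 striatal markers were lower in mean (median -0.51, none called), as were all 11 myelin genes (median -0.16, none called) and all 6 astrocyte markers (median -0.24, 1 called), and their part in these differences was not tested.

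**Figure D3:**
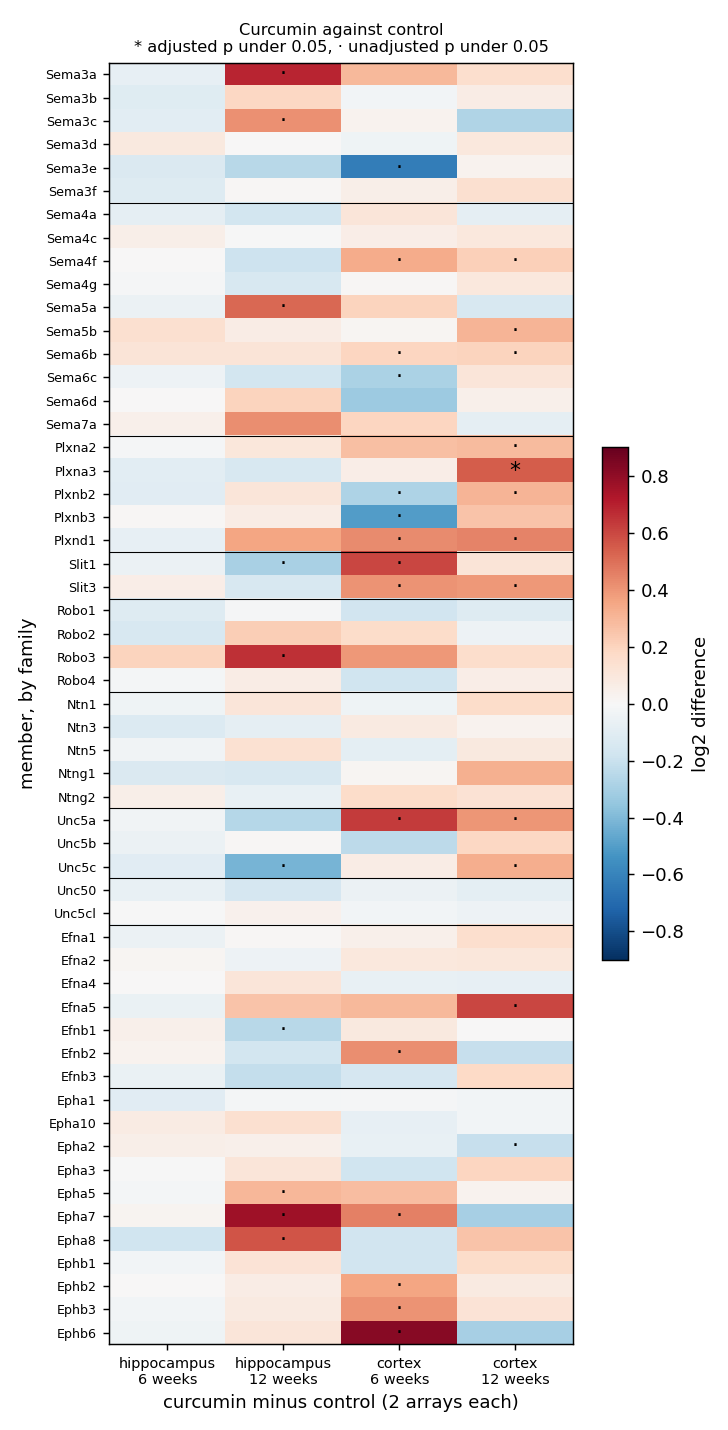
Log2 difference, curcumin minus control (colour scale), for the 55 genes by family (y axis) in the 4 tissue and duration groups (x axis; 2 arrays against 2). The star marks Plxna3 in cortex at 12 weeks, the only difference with an adjusted p under 0.05, and dots mark an unadjusted p under 0.05, of which hippocampus at 6 weeks has 0.

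The change of the curcumin difference from 6 to 12 weeks was tested directly. In cortex limma called 1 of 55 genes, against 1.47% of clusters: Ephb6, with a log2 difference of 0.82 at 6 weeks and -0.30 at 12 weeks and a change of -1.12 (SE 0.194, adjusted p = 0.0258). On 12-week arrays it read 8.70 and 8.54 with control chow and 8.36 and 8.28 with curcumin. On the 8 hippocampal arrays it stayed between 8.14 and 8.34. The 6-week cortical control arrays, at 7.58 and 7.74, were the lowest of all 16 for Ephb6. The call was lost when cortical control replicate 2 of 6 weeks (adjusted p = 0.0801), control replicate 1 of 12 weeks (0.131) or curcumin replicate 2 of 12 weeks (0.0948) was left out.

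The difference between the tissues in the effect of curcumin was called for 0 of 55 genes and 0% of clusters at 6 weeks, with 7 genes at an unadjusted p under 0.05, against 5.48% of clusters. At 12 weeks limma called 0 of 55, against 0.190% of clusters, with 9 at an unadjusted p under 0.05, against 10.6% of clusters. Nearest were Epha7, which was higher with curcumin by 0.76 in hippocampus and differed by -0.30 in cortex (tissue difference -1.06, SE 0.198, adjusted p = 0.0681), and Plxna3 (tissue difference 0.69, SE 0.132, adjusted p = 0.0681).

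The third comparison sets control arrays at 12 weeks against those at 6 weeks. Duration, the greater age of the 12-week rats and anything else that differed between the 6-week and 12-week pools cannot be told apart there. In hippocampus 3 genes were lower at 12 weeks, against 1.5% of clusters, and 0 higher, against 2.77%. Robo2, the main neuronal Slit receptor with Robo1, read 8.73 and 8.70 at 6 weeks and 8.14 and 8.36 at 12 weeks, a difference of -0.46 (adjusted p = 0.0299). Plxnb2 differed by -0.48 (adjusted p = 0.0439) and Epha8 by -0.56 (adjusted p = 0.0492). Each of the 3 calls was lost when any of the 4 arrays was left out and in a fit of these arrays alone. The choroid plexus list was lower at 12 weeks in the same comparison in all 5 genes, with a median of -1.88.

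In cortex 4 genes were higher at 12 weeks, against 5.42% of clusters, and 2 lower, against 3.44%. Ephb6 read 7.58 and 7.74 at 6 weeks and 8.70 and 8.54 at 12 weeks, higher by 0.96 (SE 0.137, adjusted p = 0.00365), and it stayed past the threshold without any 1 of the 4 arrays. Slit1 was higher by 0.60 (adjusted p = 0.00991), Epha7 by 0.65 (adjusted p = 0.0175) and Efnb2, a transmembrane ephrin, by 0.51 (adjusted p = 0.0389). Plxnb2 was lower by a log2 difference of -0.57 (adjusted p = 0.0144), as in hippocampus, and Sema3e by one of -0.59 (adjusted p = 0.0414). Apart from Ephb6, each of these calls was lost on leaving out 1 array, for 3 of the 4 arrays or for all 4, with adjusted p up to 0.262, and in a fit of these arrays alone all 6 were lost, with adjusted p from 0.0566 to 0.191.

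This comparison shares its 6-week control arrays with that of curcumin at 6 weeks. Side by side, the difference from those arrays was 0.96 with duration and 0.82 with curcumin for Ephb6, 0.60 and 0.60 for Slit1, and -0.59 and -0.62 for Sema3e. The same 2 arrays carried the raised olfactory bulb markers, which fell at 12 weeks in 1 of 5 genes by the test, with a median of -0.60. Fezf2 was called higher at 12 weeks in cortex on control arrays, by 0.80. The part of these markers in these values was not tested.

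**Figure D4:**
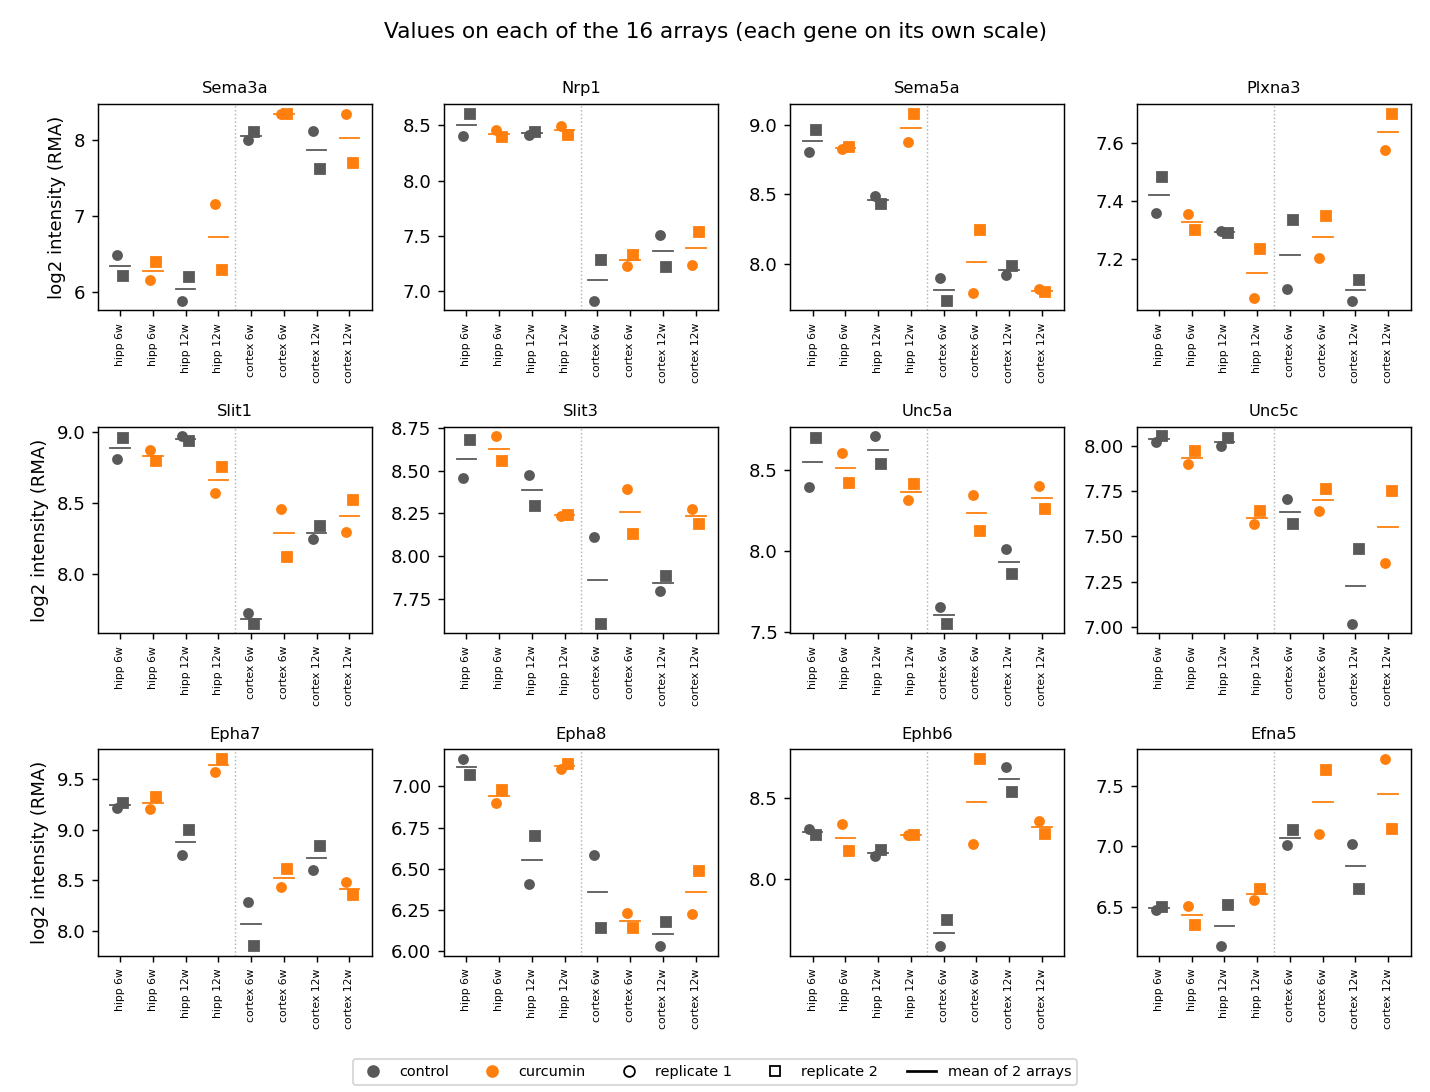
Log2 intensity (y axis, a scale for each gene) of 11 guidance genes and the co-receptor Nrp1 on each of the 16 arrays by tissue and week (x axis), grey for control and orange for curcumin. Sema3a and Nrp1 separate the tissues in opposite directions, Ephb6 is lowest on the 6-week cortical control arrays (7.58 and 7.74), and Plxna3 is highest on the 12-week cortical curcumin arrays (7.58 and 7.70).

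A list of co-receptors and downstream genes of these pathways (neuropilins, Dcc, adhesion partners, small GTPases and their regulators) had 50 of 60 genes with a cluster. Between the tissues on control arrays 3 of 50 were higher and 9 lower in cortex, against 1.13% and 3.08% of clusters. The higher ones were Ngef, which acts downstream of Eph receptors (0.85), Rnd1, a GTPase that binds plexins (0.54), and Cntn4 (0.41). Beside both neuropilins, the lower ones included Mical1, an oxidase that couples plexins to actin (-0.61, adjusted p = 0.000813), and the kinase Pak3 (-0.52). Dcc, the attractive netrin receptor, differed by -0.63 and did not pass (adjusted p = 0.0774).

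With curcumin 0 of 50 were called in hippocampus at either duration or in cortex at 6 weeks, against 0%, 0.00366% and 0.106% of clusters. At an unadjusted p under 0.05 there were 0, 5 and 12, against 2.03%, 5.11% and 12.0% of clusters. In cortex at 12 weeks 4 of 50 (against 3.24% of clusters) were higher and 0 lower. Flrt1, an adhesion protein of a family that binds Unc5 receptors, was higher by 0.55 (SE 0.0769, adjusted p = 0.006). It read 7.30 on both control arrays and 7.83 and 7.87 on curcumin arrays. The 6-week cortical arrays read 7.77 and 7.67 for Flrt1 on control chow and 7.77 and 7.75 with curcumin. Enah, an actin regulator downstream of Robo and netrin signals, was higher by 0.51 (adjusted p = 0.0178). L1cam, a partner of Nrp1, was higher by 0.45 (adjusted p = 0.039), and Dpysl4, of the collapsin response mediator family, by 0.31 (adjusted p = 0.0267). Flrt1 was also called for its change from 6 to 12 weeks in cortex (0.51, adjusted p = 0.0475) and for the tissue difference at 12 weeks (0.71, adjusted p = 0.0405). On control arrays at 12 against 6 weeks, Rac1, the GTPase that drives membrane protrusion, was higher in hippocampus by 0.42 (adjusted p = 0.00621) and in cortex by 0.33 (adjusted p = 0.00659). Also called in both tissues were Cdc42, higher (0.26 and 0.22), and Enah (-0.41 and -0.39) and Flrt1 (-0.38 and -0.42), lower. In cortex Arhgef12, Farp2, Neo1 and Srgap2 were lower too. Of all clusters 2.77% were higher and 1.5% lower in hippocampus, and 5.42% and 3.44% in cortex. The 12-week cortical control arrays also served the curcumin comparison of Flrt1 and Enah.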

How the data were processed

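RNA pooled from rat hippocampus or cortex was hybridised to 16 single-colour Affymetrix arrays. The authors normalized the scans with Affymetrix Expression Console by RMA (background correction, quantile normalization and probe summary; versions not given in the sources used here), and the deposited values are log2 intensities, 1 per transcript cluster and array, from 4.33 to 12.87 with none missing. The base of the log is taken from RMA. The methods name a rat exon array, whereas the annotation used for names is that of a rat gene array: 15097 of 27342 clusters have 1 gene symbol, 323 several and 11922 none. RMA scales every array to the same distribution, so a shift of all genes would not show. The number of arrays, 2 to a group, limits the precision.

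Groups followed the labels. The 8 group means were fitted with limma 3.58.1 in R 4.3.3 (8 residual and 3.12 prior degrees of freedom), with no filter, and p-values were adjusted over all clusters by Benjamini-Hochberg in each of 12 contrasts. The fit was tested on simulated data. The 1.5-fold rule (at least 1.5 or at most 0.66) follows the study's methods and has no test. The guidance genes and the co-receptor, effector and marker lists were chosen with earlier results of these data known. Genes are given with values where they were called in a curcumin contrast or past 1.5-fold, where they were among the 5 largest moderated statistics of a curcumin contrast with fewer than 5 calls, or where they were called between tissues (at most 8 each way), durations or interactions (at most 6). Alternatives were a filter on the dimmest 25% of clusters, quantile normalization, robust estimation with a variance trend, weights per array, a replicate block, a random block for pools (statmod 1.5.0), clusters with 1 symbol, an adjusted p of 0.10, other folds (1.3 and 2), only the arrays compared, and each array left out. Promoter letters come from RefSeq (GRCr8). Figures were drawn with matplotlib 3.10.9.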

Additional observations from a re-analysis of the deposited data

Results flagged for a closer look

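The effect of curcumin on Ephb6 in cortex differed between the durations by the interaction term of limma: the log2 difference from control was 0.82 at 6 weeks and -0.30 at 12 weeks, a change of -1.12 (SE 0.194, adjusted p = 0.0258). Both 6-week curcumin arrays lay above their controls and both 12-week curcumin arrays below theirs. The same change in hippocampus was 0.15 (adjusted p = 1). In cortex the control arrays read 7.58 and 7.74 at 6 weeks and 8.70 and 8.54 at 12 weeks. The cortical curcumin arrays read 8.21 and 8.75, then 8.36 and 8.28. The call was lost in a limma fit of the compared arrays alone (adjusted p = 0.183) and on leaving out certain single arrays, as given above. The part of the raised olfactory bulb and myelin markers on the 6-week cortical controls was not tested.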

How the results depend on the processing

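No called gene turned direction under any alternative run. Over 61 gene results there were 558 combinations with a setting other than leaving out an array, of which 509 kept direction and side of the threshold, 33 fell below it, 11 rose past it and 5, all of Sema4c, turned direction. For curcumin in cortex at 6 weeks the count of called genes rose from 0 to 1 with the dimmest 25% of clusters left out and with quantile normalization, and to 3 with a variance trend, with clusters of 1 symbol and at an adjusted p under 0.10. For curcumin in cortex at 12 weeks it went from 1 to 0 when only the arrays compared were fitted, and so did the change between durations in cortex, which rose to 3 at an adjusted p under 0.10. The tissue difference in the effect at 12 weeks went from 0 to 1 with quantile normalization and with a variance trend, and to 2 at 0.10. For control arrays at 12 against 6 weeks the counts of 3 (hippocampus) and 6 (cortex) went to 0 when only the arrays compared were fitted. Chosen after seeing the data, the tissue difference within a duration gave 5 genes for 12-week control arrays and 4 for 6-week curcumin arrays, against 10 in each full comparison. Past 1.5-fold stood 3, 4 and 1 genes (hippocampus at 12 weeks, cortex at 6 and 12 weeks); at least 1.3-fold gave 8, 11 and 5, at least 2-fold gave 0 in each, and quantile normalization gave 0 for cortex at 12 weeks. The causes were not tested.

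Leaving out 1 array gave 0 to 0 genes for curcumin in hippocampus at both durations, 0 to 8 in cortex at 6 weeks, 0 to 1 in cortex at 12 weeks, 9 to 12 between tissues on control arrays, 6 to 11 on curcumin arrays (6 without hippocampal curcumin replicate 2 of 6 weeks), 0 to 3 for duration in hippocampus, 1 to 8 in cortex, 0 to 0 for the change between durations in hippocampus, 0 to 6 in cortex (6 without cortical control replicate 1 of 6 weeks), and 0 to 1 for the tissue difference at either duration. The counts past 1.5-fold ran from 0 to 0 and 2 to 6 in hippocampus (6 without control replicate 2 of 12 weeks) and 3 to 9 and 0 to 2 in cortex (9 without control replicate 1 of 6 weeks) at 6 and 12 weeks.

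With the replicate number as a block, 9 genes were called between tissues on control arrays, 11 on curcumin arrays, 2 and 5 between durations and 1 for curcumin in cortex at 12 weeks; Sema3c (adjusted p = 0.0573), Epha8 between durations in hippocampus (0.0662) and Efnb2 between durations in cortex (0.0512) fell below the threshold. Same-numbered arrays did not deviate together throughout: between tissues of 1 diet and duration the correlations of the replicate differences were 0.124, -0.154, 0.162 and 0.148, and between diets -0.429 to 0.0404, so the pairing was not used. The other cluster of Sema4c is set here against the one used, with none called. Its log2 differences with curcumin in hippocampus were -0.20 against 0.05 and 0.0505 against -0.0052 (6 and 12 weeks). In cortex they were -0.39 against 0.06 and -0.14 against 0.10. Between tissues on control arrays the difference was 0.14 against -0.04. Other comparisons, outside the 5 counted above, also differed in sign. At 12 against 6 weeks on control arrays the values were -0.07 against 0.35 in hippocampus and -0.28 against 0.29 in cortex.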
